A study of Mus musculus with 4 samples.

Results

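The immediate early genes followed here were Fos, Fosb, Jun, Junb, Egr1, Egr2, Ier2, Ier3, Atf3 and Nr4a1. They were taken by name, from a list drawn up with earlier results of these data known, and all 10 were found among the 21578 genes of the joined count tables, as were all 10 among the 15909 genes tested. RNA came from endothelial cells of the brain of C57BL/6 mice at postnatal day 0. The control group, Pd1fl/fl, carried floxed alleles of Pd1, the gene of the PD-1 receptor (listed as Pdcd1). In the other group, Pd1cKO-Tie2, the floxed alleles were deleted by Cre recombinase under the Tie2 promoter, which is active in endothelial cells and, by the study's own account, also in blood-forming cells and some myeloid cells. Each genotype had 2 libraries, and those of the former are also called controls and those of the latter knockouts. Papain digestion of the cortex and sorting after labelling for CD31 and CD45 are the steps given for isolating these cells. Neither pooling of animals nor their sex is given in the sources used here, and nothing says that the libraries of a genotype came from separate animals, so the p-values measure only the spread between these samples, which may be technical.

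Immediate early genes are transcribed within minutes of a stimulus and need no new protein for it. Protein kinases phosphorylate factors that already sit on their promoters, among them the ternary complex factors bound beside SRF at CArG boxes and CREB bound at cAMP response elements (CRE). The products are mostly transcription factors that start a later wave of genes. Fos, Fosb, Jun, Junb and Atf3 form the dimers of AP-1 and related leucine zipper proteins, Egr1 and Egr2 are zinc finger factors, Nr4a1 is an orphan nuclear receptor, and Ier2 and Ier3 are small early response proteins. In endothelium these genes are known to respond to growth factors, shear stress and cytokines, and in many tissues they are known to be induced while cells are being isolated.

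The start regions of 5 of the genes are printed. Fos, Fosb, Nr4a1 and Egr2 are shown for elements through which such genes are known to be switched on. Jun is shown for comparison, since none of the motifs searched was in its window. Near matches to the motifs were not searched, so this does not show that Jun lacks such elements. RefSeq promoters of GRCm38.p6, reaching from 250 bases before to 50 bases after a start site, were matched for 8 of the 10 genes. Egr1 and Ier2 had no entry. The capitals in the first 4 sequences mark the CRE core TGACG on either strand, and those in the fifth mark a CArG box. The regions are those of Fos (chr12:85473640-85473939, plus strand), Fosb (chr7:19309996-19310295, minus strand), Nr4a1 (chr15:101266596-101266895, plus strand), Jun (chr4:95052173-95052472, minus strand) and Egr2 (chr10:67537619-67537918, plus strand), each read 5′ to 3′ on the strand of the gene.
Fos: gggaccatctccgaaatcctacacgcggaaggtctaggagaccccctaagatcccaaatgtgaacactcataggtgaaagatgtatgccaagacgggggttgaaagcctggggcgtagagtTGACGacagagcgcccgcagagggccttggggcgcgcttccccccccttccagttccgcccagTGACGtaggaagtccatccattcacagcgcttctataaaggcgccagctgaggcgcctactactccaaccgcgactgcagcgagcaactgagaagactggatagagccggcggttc
Fosb: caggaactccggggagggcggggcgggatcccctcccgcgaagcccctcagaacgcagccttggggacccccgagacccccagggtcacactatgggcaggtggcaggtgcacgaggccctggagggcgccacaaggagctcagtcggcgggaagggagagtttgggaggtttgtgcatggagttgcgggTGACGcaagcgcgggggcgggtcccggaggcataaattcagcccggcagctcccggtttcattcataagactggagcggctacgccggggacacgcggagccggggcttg
Nr4a1: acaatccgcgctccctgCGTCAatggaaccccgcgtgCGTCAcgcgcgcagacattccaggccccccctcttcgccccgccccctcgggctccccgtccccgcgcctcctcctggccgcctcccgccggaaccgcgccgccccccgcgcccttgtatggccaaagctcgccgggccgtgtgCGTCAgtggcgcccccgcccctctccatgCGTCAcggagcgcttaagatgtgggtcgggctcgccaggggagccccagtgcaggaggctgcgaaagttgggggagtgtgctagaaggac
Jun: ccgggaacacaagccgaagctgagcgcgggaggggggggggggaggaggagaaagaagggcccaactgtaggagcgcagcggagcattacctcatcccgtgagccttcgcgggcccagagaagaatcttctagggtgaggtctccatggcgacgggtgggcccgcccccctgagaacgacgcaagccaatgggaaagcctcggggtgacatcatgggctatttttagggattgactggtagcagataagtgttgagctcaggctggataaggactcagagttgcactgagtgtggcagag
Egr2: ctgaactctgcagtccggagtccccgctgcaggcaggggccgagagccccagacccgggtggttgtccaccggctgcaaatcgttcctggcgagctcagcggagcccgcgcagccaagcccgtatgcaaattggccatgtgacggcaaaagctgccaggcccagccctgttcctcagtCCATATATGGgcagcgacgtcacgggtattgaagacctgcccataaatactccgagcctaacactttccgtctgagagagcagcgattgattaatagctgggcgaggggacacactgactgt
The core TGACG was found in 6 of the 8 genes matched, Fos, Fosb, Junb, Atf3, Egr2 and Nr4a1, but not in the windows of Jun and Ier3. Among all genes with a promoter of this length, 23.0% hold it. Counted by promoters, it was in 8 of the 12 of these genes, several of which overlap, and in 20.8% of all 32851. This core is contained in the full CRE, TGACGTCA, and its search was added after the promoters had been seen. A CArG box was found in Egr2 alone of the 8 genes, against 1.81% of all genes. It lay in 4 of the promoters of Egr2, 3 of which overlap and share the box shown. The full CRE (1.79% of all promoters), the AP-1 site TGANTCA (7.81%) and the ETS site CCGGAAG (8.86%) were in none of the 12 promoters of these genes. The EGR site GCGNGGGCG was in 2 of the 8 genes, Fosb and Nr4a1, against 6.27% of all genes. TATAAA was in 2 as well, Fos and Junb, against 15.7% of all genes. All motifs were searched on both strands. A match describes the letters of the window and does not show that a factor was bound. A motif not found is missing only from this window and in the letters searched. Sequence further from the start was not searched, so a gene without a match, Fos for the CArG box included, may hold one there.

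The libraries held 13715837 to 24147311 counts, so that 3 counts, the limit that a count of 0 allows, corresponded to 0.124 to 0.219 CPM, the count scaled to the library's total. That limit covers counting error only. Pdcd1 held 32 counts in Pd1fl/fl replicate 1 and 0 in each of the other libraries, Pd1fl/fl replicate 2 included, so it does not separate the genotypes. All 12 endothelial markers were detected in every library, with summed levels of 13236 to 17886 CPM. Microglia and macrophage markers were also detected, 12 of 12 with none at 0 in any library, at summed levels of 892 to 2737 CPM. Neutrophil granule and related markers stood apart in Pd1fl/fl replicate 1, at 933 CPM against 1.32 to 55.4 CPM in the other libraries.

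Several of the immediate early genes were abundant transcripts of these cells. Fos ranked between the 18th and the 38th place of all genes by CPM in the 4 libraries. Their levels spanned a wide range per kilobase of exon (RPKM, from TMM-scaled CPM and the summed exon length). Fos was highest at 737 to 1287 RPKM, followed by Jun at 510 to 668, Egr1 at 271 to 592, Ier2 at 253 to 316 and Junb at 164 to 222 RPKM. Ier3 followed at 66.4 to 125 RPKM, Atf3 at 10.5 to 63.2, Fosb at 16.4 to 40.8, Nr4a1 at 4.72 to 7.49 and Egr2 at 2.45 to 6.81 RPKM. The exon length used for Nr4a1, 3509 bases, belongs to an annotated gene starting at 101254269, upstream of the deposited start at 101266846. The RPKM of Nr4a1 may therefore be too low. The ranges of Jun and Egr1, of Egr1 and Ier2, of Atf3 and Fosb, and of Nr4a1 and Egr2 overlapped, and their order is not set by these libraries. Fos, Jun and Egr1 together held between 81.2% and 83.3% of the CPM of the 10 genes in every library.

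**Figure D1:**
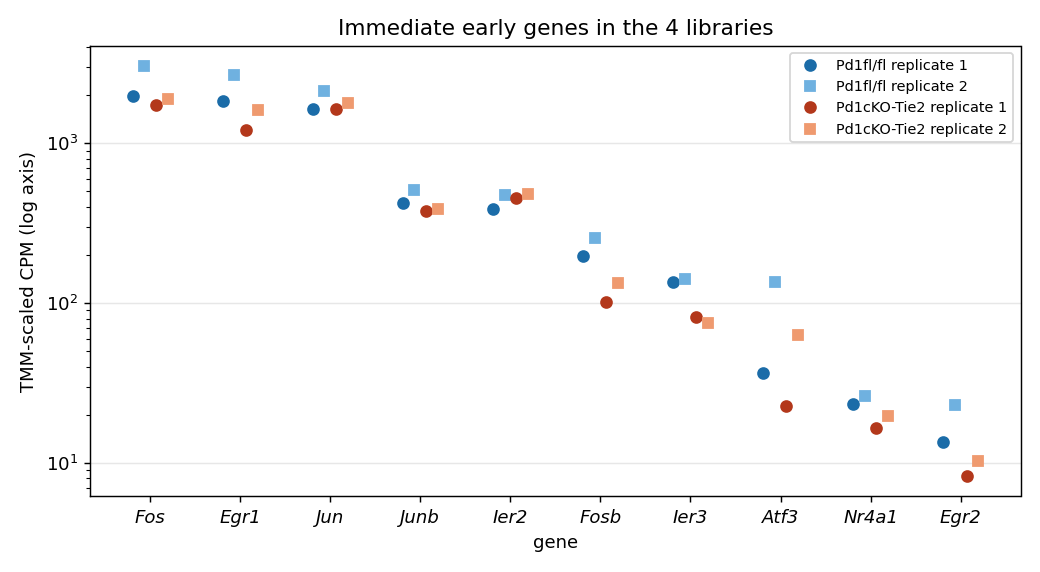
TMM-scaled CPM (log axis) of each immediate early gene, with one point for each of the 4 libraries and the genes ordered by their mean in Pd1fl/fl. Levels run from 8.31 CPM for Egr2 to 3027 CPM for Fos, and the light blue square of Pd1fl/fl replicate 2 is the highest point of every gene but Ier2.

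The comparison asks whether transcript levels differed between sorted cells of the Pd1fl/fl and the Pd1cKO-Tie2 genotype. The study's methods count a gene as changed when its fold change reaches 2 and its p does not exceed 0.05, and that rule is the criterion here. By edgeR's quasi-likelihood test 0 of the 10 genes met it, against 4.02% of all tested genes, 2.61% lower and 1.41% higher in Pd1cKO-Tie2. An adjusted p under 0.05 was reached by 0 of the 10 and by 0.0% of all genes, and the smallest adjusted p of all, 0.735, was that of Fosb, Egr1 and Ier3 among others. An unadjusted p under 0.05 was found for 3 of the 10, Fosb, Ier3 and Egr1, by edgeR and for 4 each by DESeq2 and limma-voom, against 6.39%, 6.33% and 6.45% of all genes by the same tools. By DESeq2 1 gene, Fosb, had an adjusted p under 0.05, as did 0.672% of the genes to which it gave one. The levels pointed one way for most: the log2 fold change of Pd1cKO-Tie2 over Pd1fl/fl was below 0 for 9 of 10 genes, against 50.4% of all genes, and its median was -0.57, against -0.0038 over all genes. For 7 of the 10 genes both Pd1cKO-Tie2 libraries lay below both Pd1fl/fl libraries, as did 18.1% of all genes, and for 0 of 10 they lay above, against 17.7% (35.8% in either direction). Jun, Ier2 and Atf3 overlapped. The median was -0.25 without Pd1fl/fl replicate 2 and -0.79 without Pd1fl/fl replicate 1, and 3 genes met the criterion without the latter, Fosb, Egr2 and Atf3. A lower level of a transcript in such sorted cells cannot be told apart from fewer cells that express it.

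Among the genes of the Fos proteins, which pair with Jun proteins to bind DNA, Fosb had the larger difference. Fosb (chr7:19302696-19310051, minus strand) held 2841 and 3626 counts in the Pd1fl/fl libraries and 2450 and 1825 in the Pd1cKO-Tie2 libraries, which is 197 and 255 CPM against 102 and 133 CPM. Both Pd1cKO-Tie2 libraries were lower than both Pd1fl/fl libraries, with means of 118 ± 22.0 and 226 ± 41.2 CPM (SD, n = 2 each). The log2 fold change was -0.94 (SE 0.22), with adjusted p = 0.735 by edgeR's quasi-likelihood test with Benjamini-Hochberg adjustment and adjusted p = 0.0194 by DESeq2. It stayed between -1.14 and -0.74 when each library was left out. Fos (chr12:85473890-85477273, plus strand), the best known partner of Jun, held 28494 and 43057 counts in the controls against 41484 and 25995 in the knockouts. These counts correspond to 1972 and 3027 against 1732 and 1900.0 CPM. Pd1fl/fl replicate 2 stood 1.53 times above replicate 1 of its genotype, and the Pd1fl/fl and Pd1cKO-Tie2 means were 2499 ± 745 and 1816 ± 118 CPM. With a log2 fold change of -0.46 (SE 0.21, adjusted p = 0.845 by edgeR), the difference of Fos was not past the threshold, and without Pd1fl/fl replicate 2 it was -0.12.

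The genes of the Jun proteins, which can pair with Fos proteins or with each other, had smaller differences. Jun (chr4:95049034-95052222, minus strand) held 23510 and 30311 counts in the controls against 39313 and 24282 in the knockouts, or 1627 and 2131 against 1642 and 1775 CPM. Its lowest and its highest library were both Pd1fl/fl, and the groups overlapped. The log2 fold change was -0.14 (SE 0.15, adjusted p = 0.9998 by edgeR), and it turned to 0.07 without Pd1fl/fl replicate 2. Junb (chr8:84974484-84978718, minus strand) held 6069 and 7251 against 9019 and 5322 counts, or 420.1 and 510 against 377 and 389 CPM. Its Pd1cKO-Tie2 libraries lay close together below both controls, at a log2 fold change of -0.28 (SE 0.15, adjusted p = 0.910 by edgeR) that was -0.13 without Pd1fl/fl replicate 2. Of the exon bases of Jun 7.28% overlap Junos, and of those of Junb 7.52% overlap Prdx2, in both cases on the other strand, and the use of strand in counting is not stated in the sources used here.

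Atf3 (chr1:191170296-191218039, minus strand), a stress-induced member of the ATF family that can repress its targets, varied most within a genotype. It held 527 and 1936 counts in the controls against 540 and 861 in the knockouts, or 36.5 and 136 against 22.6 and 62.9 CPM. Replicate 2 was 3.73 times replicate 1 in Pd1fl/fl and 2.79 times in Pd1cKO-Tie2, and the groups overlapped. A log2 fold change of -1.02 with a standard error of 0.73 (adjusted p = 0.967 by edgeR) was thus within the spread of the libraries. Without Pd1fl/fl replicate 2 it was 0.23, and without Pd1cKO-Tie2 replicate 2 it was -1.93.

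Both EGR factors were lower in both Pd1cKO-Tie2 libraries. Egr1 (chr18:34859823-34864984, plus strand), which growth factor signalling is known to induce through SRF and its partners, held 26631 and 37791 counts in the controls against 29097 and 22053 in the knockouts. On the CPM scale these were 1843 and 2656 against 1215 and 1612, with means of 2249.9 ± 575 and 1413 ± 280.5 CPM (SD, n = 2 each). Its log2 fold change was -0.67 (SE 0.22), with adjusted p = 0.735 by edgeR and adjusted p = 0.0571 by DESeq2. Leaving out Pd1fl/fl replicate 2 brought it to -0.38. Egr2 (chr10:67535475-67542188, plus strand), known for its role in myelinating Schwann cells and hindbrain patterning, was scarce, at 196 and 329 counts in the controls against 199 and 140 in the knockouts. The corresponding levels were 13.6 and 23.1 against 8.31 and 10.2 CPM, a log2 fold change of -0.99 (SE 0.47, adjusted p = 0.859 by edgeR). It ran from -1.32 to -0.55 with each library left out, the latter without Pd1fl/fl replicate 2.

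The nuclear receptor Nr4a1 (chr15:101266846-101274792, plus strand), which acts without a known natural ligand and is induced in endothelium by VEGF, held 340 and 374 counts in the controls against 397 and 270 in the knockouts. Its levels were 23.5 and 26.3 against 16.6 and 19.7 CPM, without overlap. The log2 fold change was -0.46 (SE 0.33, adjusted p = 0.966 by edgeR), between -0.58 and -0.33 with each library left out.

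The IER genes differed in direction. Ier3 (chr17:35821684-35822923, plus strand), which is known to modulate apoptosis, held 1947 and 2018 counts in the controls against 1959 and 1027 in the knockouts. As CPM these were 135 and 142 against 81.8 and 75.1, so that the libraries of each genotype lay close together and the genotypes well apart. The means were 138 ± 5.005 CPM in the controls against 78.4 ± 4.77 CPM in the knockouts (SD, n = 2 each). Its log2 fold change was -0.82 (SE 0.18), with adjusted p = 0.735 by edgeR and adjusted p = 0.0673 by DESeq2. It was the steadiest of the 10 when libraries were left out, between -0.87 and -0.75. Ier2 (chr8:84661331-84662852, minus strand), a nuclear protein of the early growth response, held 5571 and 6767 against 10950 and 6583 counts, or 386 and 476 against 457 and 481 CPM. Ier2 was the exception among the 10, with a log2 fold change of 0.12 (SE 0.16, adjusted p = 0.9998 by edgeR) that was -0.02 without Pd1fl/fl replicate 1.

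**Figure D2:**
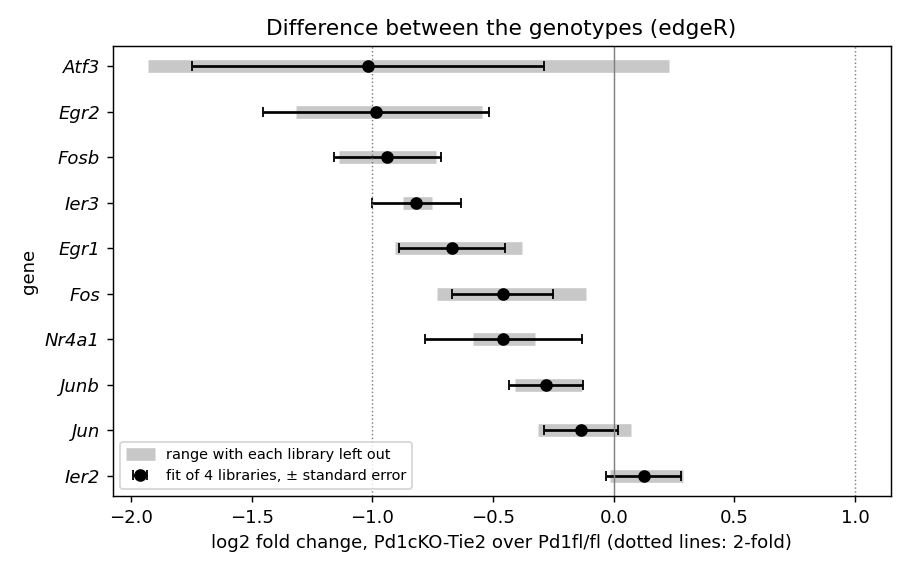
Log2 fold change of Pd1cKO-Tie2 over Pd1fl/fl for each gene (points, with the standard error as bars) and its range when each library was left out (grey). The points lie between -1.02 for Atf3 and 0.12 for Ier2, the bar of Ier3 has the narrowest grey range, and the grey ranges of Atf3, Jun and Ier2 cross 0.

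Most of the 10 genes shared a highest and a lowest library as well as a direction. Pd1fl/fl replicate 2 was the highest library for 9 of 10, against 26.5% of all tested genes, with Ier2 as the exception, which was highest in Pd1cKO-Tie2 replicate 2, as were 24.9%. Pd1cKO-Tie2 replicate 1 was the lowest for 7 of 10, against 24.3% of all genes, while Jun and Ier2 were lowest in Pd1fl/fl replicate 1 (26.6% of all genes) and Ier3 in Pd1cKO-Tie2 replicate 2 (23.9%). None of the 10 was lowest in Pd1fl/fl replicate 2, where 25.2% of all genes were. The mean centred log2 level of the 10 genes was 0.0012 and 0.54 in controls 1 and 2 and -0.42 and -0.12 in knockouts 1 and 2. For 6 genes the genotypes were further apart than the libraries of either genotype were from each other on the log2 scale. They were Fosb, Junb, Egr1, Egr2, Ier3 and Nr4a1, with Junb only just so, against 20.2% of all genes. The median difference was 0.38 between the Pd1fl/fl libraries, 0.19 between the Pd1cKO-Tie2 libraries and 0.57 between the genotypes, all on the log2 scale and without sign.

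**Figure D3:**
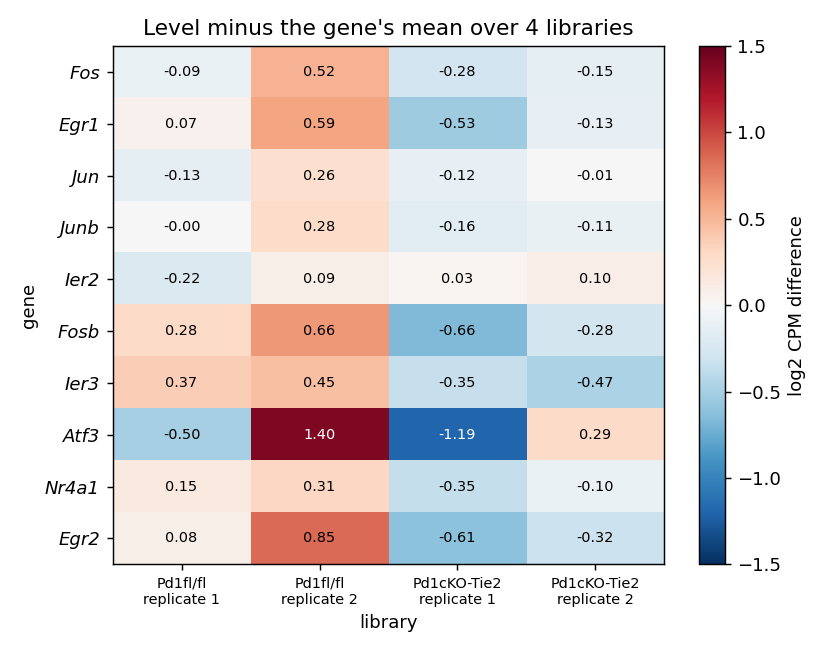
Log2 CPM of each gene minus its own mean over the 4 libraries, with genes as rows and libraries as columns (red above, blue below the mean). The column of Pd1fl/fl replicate 2 is red throughout, from 0.09 for Ier2 to 1.40 for Atf3.

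Count ratios within a library, which do not depend on scaling, were taken for pairs of related genes. These 4 ratios were chosen after the values were seen. There were 2.86 and 3.35 counts of Ier2 per count of Ier3 in the Pd1fl/fl libraries and 5.59 and 6.41 in the Pd1cKO-Tie2 libraries. Fosb per Junb was 0.468 and 0.5001 against 0.272 and 0.343, and Fos per Jun was 1.21 and 1.42 against 1.06 and 1.07. Egr1 per Egr2 was 136 and 115 against 146 and 158. None of these overlapped between the genotypes, but the choice was made with the values known. How many other gene pairs were separated in this way was not counted.

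Summed over the 10 genes, the level was 6654 and 9381 CPM in the Pd1fl/fl libraries and 5655 and 6458 CPM in the Pd1cKO-Tie2 libraries. The summed microglia and macrophage markers were 2308 and 2737 against 892 and 1992 CPM. All 12 of those markers had a log2 fold change below 0, against 50.4% of all genes, with a median of -0.79. For 8 of 12 both Pd1cKO-Tie2 libraries lay below both controls, against 18.1% of all genes. An unadjusted p under 0.05 by edgeR was found for 4 of 12, against 6.39%. Tmem119 (log2 fold change -1.21) and Trem2 (-1.33) met the criterion for lower levels, as did 2.61% of all genes. Without Pd1cKO-Tie2 replicate 1 neither did, at -0.77 and -1.11, nor did Trem2 without Pd1fl/fl replicate 2. Pd1cKO-Tie2 replicate 1 was the lowest library for 12 of 12, against 24.3% of all genes. Pd1fl/fl replicate 2 was the highest for 9 of 12, against 26.5% of all genes. The same libraries were lowest and highest for most immediate early genes. Endothelial markers went the other way, at 14120 and 13236 against 17146 and 17886 CPM. All 12 had a log2 fold change above 0, with a median of 0.35. For 12 of 12 both Pd1cKO-Tie2 libraries lay above both controls, against 17.7% of all genes. By edgeR 6 of 12 had an unadjusted p under 0.05, against 6.39% of all genes, and 0 met the criterion, against 4.02%. Per CPM of endothelial markers, the immediate early genes stood at 0.471 and 0.709 in the controls against 0.330 and 0.361 in the knockouts, and per CPM of microglia markers at 2.88 and 3.43 against 6.34 and 3.24. The markers of radial glia and astrocytes were also lower in sum, at 932 and 910 against 616 and 443 CPM. Both knockouts lay below both controls for 6 of 9, against 18.1% of all genes, and above for 1, against 17.7%. An unadjusted p under 0.05 by edgeR was found for 6 of 9, against 6.39%. Past the criterion 1 was lower (Fabp7), against 2.61% of all genes. Another 1 was higher (Hopx, with 0 and 1 against 358 and 43 counts), against 1.41%. Pericyte and smooth muscle markers summed to 5718 and 3735 against 3820 and 3811 CPM, so the genotypes overlapped in this sum. All 7 tested had a log2 fold change below 0, against 50.4% of all genes, with a median of -0.37. Each of the 7 was highest in Pd1fl/fl replicate 1, where 24.3% of all genes were. For 3 of 7 both knockouts lay below both controls, against 18.1%, and 0 had an unadjusted p under 0.05 by edgeR, against 6.39%. The part of these other cells in the level of the immediate early genes was not tested.

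**Figure D4:**
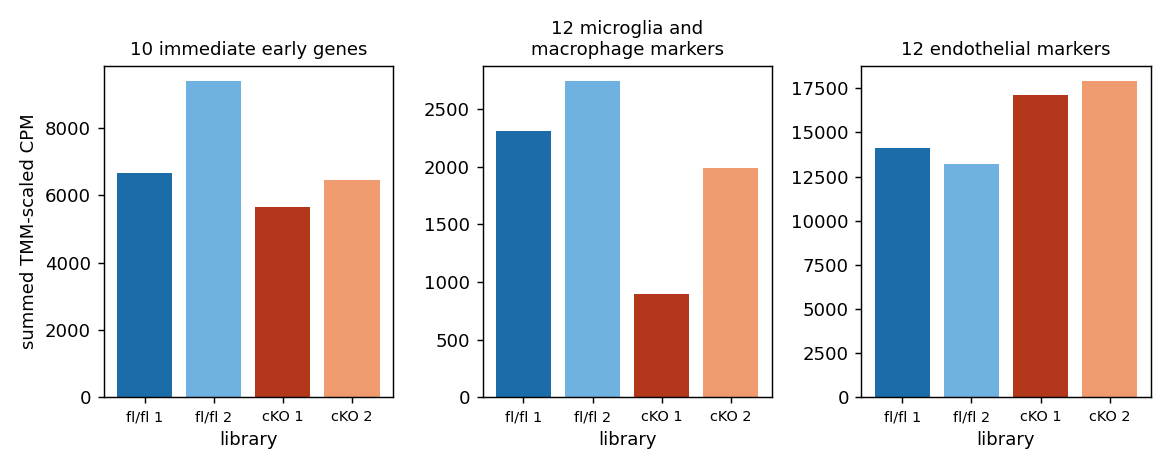
Summed TMM-scaled CPM in each of the 4 libraries of the 10 immediate early genes, of 12 microglia and macrophage markers and of 12 endothelial markers, each panel with its own axis from 0. The first 2 panels have their highest bar in Pd1fl/fl replicate 2 and their lowest in Pd1cKO-Tie2 replicate 1, while the endothelial bars are highest in the Pd1cKO-Tie2 libraries.

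Other immediate early genes were mixed in direction. Of 57 listed, 54 were measured and 50 tested. Of the 50, 30 had a log2 fold change below 0, against 50.4% of all genes, with a median of -0.17. Pd1fl/fl replicate 2 was the highest library for 30 of the 50, against 26.5% of all genes, as it was for most of the 10. The lowest was Pd1cKO-Tie2 replicate 1 for 16, against 24.3%, and Pd1fl/fl replicate 1 for 17, against 26.6%. Past the criterion were 2 of the 50, against 4.02% of all genes, both lower in Pd1cKO-Tie2. An unadjusted p under 0.05 by edgeR was found for 6 of the 50, against 6.39% of all genes. Ptgs2, the inducible cyclooxygenase, held 38.6 and 45.6 CPM in the controls against 7.06 and 20.2 CPM in the knockouts. Its log2 fold change was -1.64 (SE 0.54, adjusted p = 0.735 by edgeR, adjusted p = 0.186 by DESeq2). Nfkbiz, a nuclear IκB protein, held 74.2 and 90.3 against 25.3 and 54.3 CPM, at -1.05 (SE 0.40, adjusted p = 0.753 by edgeR). Neither overlapped between the genotypes, as was the case for 35.8% of all genes in either direction. With each library left out, Ptgs2 ran from -2.57 without Pd1cKO-Tie2 replicate 2 to -1.05 without Pd1cKO-Tie2 replicate 1, and Nfkbiz from -1.70 to -0.59 without the same libraries. Neither met the criterion without Pd1fl/fl replicate 2, nor did Nfkbiz without Pd1cKO-Tie2 replicate 1. Dusp1, Zfp36, Tiparp and Ppp1r15a had log2 fold changes between -0.86 and -0.58 with an unadjusted p under 0.05. In the other direction, Arc was at 1.40 (SE 0.62, adjusted p = 0.832 by edgeR) and Fosl2 at 1.12 (SE 0.62, adjusted p = 0.913), neither past the threshold, and Fosl2 ran from 0.65 without Pd1fl/fl replicate 1 to 1.83 without Pd1fl/fl replicate 2, where it met the criterion. Jund, with 4 and 2 against 4 and 5 counts, and Fosl1, with 0 and 0 against 16 and 75 counts, were too low or too uneven to be tested, and 52.6% of the exon bases of Jund overlap Gm11175 on the other strand. The AP-1 partners outside the 10 genes, 9 of 12 listed being tested, had a median of -0.18. Of these, 0 were past the criterion and 0 had an unadjusted p under 0.05 by edgeR, against 4.02% and 6.39% of all genes.

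Factors and kinases upstream of these genes were mixed in direction too. Of 20 tested, 13 had a log2 fold change above 0 and 7 below, against 50.4% of all genes below 0, with a median of 0.13. By edgeR 0 met the criterion and 0 had an unadjusted p under 0.05, against 4.02% and 6.39% of all genes. The criterion was met by 2 with DESeq2 and by 2 with limma-voom, all higher. Among all genes 1.41% and 0.861% met it higher by these tools (4.34% and 3.17% in either direction). Srf, the factor that binds CArG boxes, held 119 and 310 against 1100 and 389 counts, or 8.24 and 21.8 against 45.9 and 28.4 CPM, higher in both Pd1cKO-Tie2 libraries, at 1.31 (SE 0.55, adjusted p = 0.806 by edgeR). Crtc2, a coactivator of CREB, was at 17.7 and 19.0 against 49.9 and 24.8 CPM, a log2 fold change of 1.03 (SE 0.42, adjusted p = 0.783 by edgeR). With each library left out, Srf ran from 0.78 without Pd1fl/fl replicate 1 to 2.18 without Pd1fl/fl replicate 2, and Crtc2 from 0.45 without Pd1cKO-Tie2 replicate 1 to 1.45 without Pd1cKO-Tie2 replicate 2. Srf met the criterion without Pd1fl/fl replicate 2 and without Pd1cKO-Tie2 replicate 2, and Crtc2 without the latter. Elk3, a ternary complex factor, was at 0.36 (SE 0.16, adjusted p = 0.852 by edgeR), and Mkl2, an actin-regulated partner of SRF, at 0.26 (SE 0.17, adjusted p = 0.949). These are transcript levels and say nothing of phosphorylation.

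Of 13 corepressors and inhibitors tested, 1 met the criterion and 3 had an unadjusted p under 0.05, against 4.02% and 6.39% of all genes, with a median of -0.14. Pd1fl/fl replicate 2 was the highest library for 8 of the 13, against 26.5% of all genes. The gene past the criterion was Nab2, a corepressor that EGR factors induce and that holds them back, with 158 and 127 against 86 and 37 counts and a log2 fold change of -1.65 (SE 0.64, adjusted p = 0.753 by edgeR). It did not meet the criterion when any 1 library was left out. Of its exon bases 42.2% overlap other genes on the other strand. The heat shock genes, a further group known to respond while tissue is being dissociated, overlapped between the genotypes in their sum, with 3524 and 3117 against 3302 and 3553 CPM. In 9 of 11 genes tested the genotypes overlapped too. Hspb1 and Dnajb1 were above both controls in both knockouts, as were 17.7% of all genes (35.8% lay apart in either direction). The median log2 fold change of the heat shock genes was 0.033 over 11 tested. Of these, 0 met the criterion and 0 had an unadjusted p under 0.05 by edgeR, against 4.02% and 6.39% of all genes. Hspb1 was at 0.40 (SE 0.20, adjusted p = 0.876 by edgeR), Hspa8 at 0.16 and Hspa5 at -0.08 (SE 0.15, adjusted p = 0.9998). Hspa1a, with 10 and 47 against 0 and 21 counts, is a near-identical copy of Hspa1b, so its counts are uncertain.

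**Figure D5:**
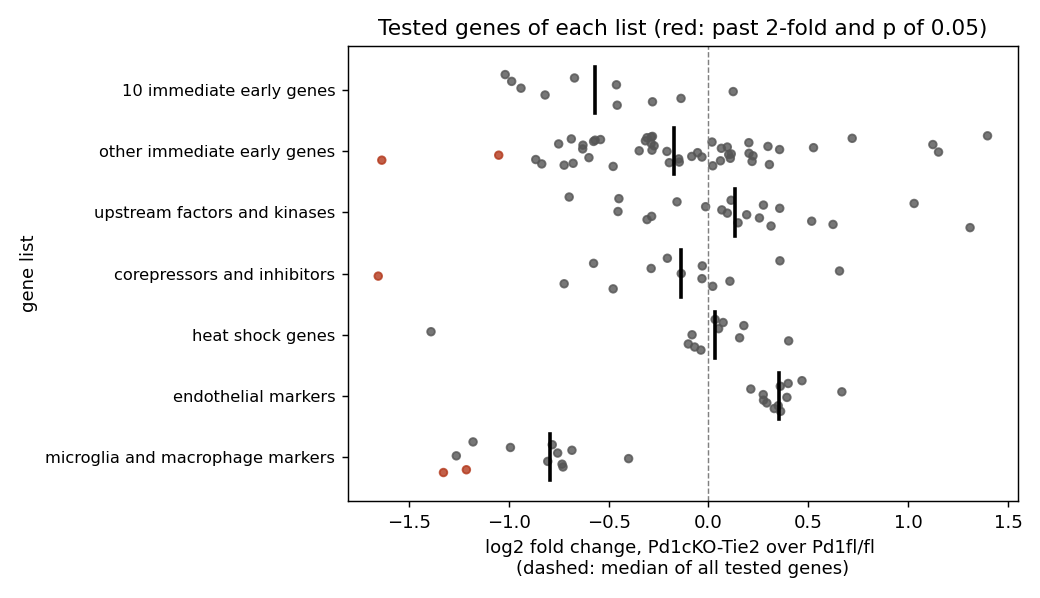
Log2 fold change of Pd1cKO-Tie2 over Pd1fl/fl for each tested gene (points) of 7 lists, with the median of each list (black bar) and of all tested genes (dashed line), and genes past the criterion in red. The medians run from -0.79 for microglia and macrophage markers through -0.57 for the 10 immediate early genes to 0.35 for endothelial markers.

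The genes whose profile over the 4 libraries was most like the mean profile of the 10 were named by the root mean square difference of their centred log2 CPM. Dusp1, the phosphatase that switches off MAP kinases and itself an immediate early gene, came closest with a difference of 0.025, from levels of 809 and 1227 against 618 and 749 CPM. Lrrcc1 (0.039), Hsf2 (0.045), Fxr2 (0.046) and Mtg1 (0.049) followed. With 4 points per gene, and all genes measured in the same libraries, this likeness is a description only.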

How the data were processed

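The authors deposited 4 tables, each setting 1 Pd1cKO-Tie2 beside 1 Pd1fl/fl library, with raw counts per gene and the CPM they computed from them. The CPM served here only to recover library totals. The tables also hold the authors' fold changes, p-values and adjusted p-values, which were not used. The submitters' processing notes name TopHat2 2.0.12, Bowtie2 2.2.3, HTSeq 0.6.0 and mm9, but 90.0% of the gene positions in the files equal those of GENCODE M21 on GRCm38, the build of the coordinates given here. Broken lines, 5 in each of 2 files, were skipped. Genes absent from a library's rows were given 0 counts, and unlisted reads were 0.00495% to 0.0107% of a total. One Pd1cKO-Tie2 column carries a number found in no sample label and was used by its genotype alone.

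Counts were tested with edgeR 4.0.16 in R 4.3.3 by its quasi-likelihood F test (filterByExpr by genotype, TMM scaling, no covariate). CPM in the text are TMM-scaled. Benjamini-Hochberg adjustment was made over the 15909 tested genes, and the common biological coefficient of variation was 0.610. The alternatives were DESeq2 1.42.0, limma 3.58.1 (voom), other filters, other scalings and leaving out each library. The test was tried on simulated counts. The 10 genes and all gene lists were chosen with earlier results of these data known. Named from the lists of other immediate early genes, upstream factors and heat shock genes were all genes past the criterion, filled up to 4 by the smallest p. The 5 genes most like the 10 were taken among named protein-coding genes. Other genes (Dnajb1, Fabp7, Hopx, Tiparp, Arc, Fosl2, Jund, Fosl1, Nab2) were named after their values were seen.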

Additional observations from a re-analysis of the deposited data

How the results depend on the processing

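With 2 libraries per genotype, small differences were beyond reach. Among all genes, 640 met the criterion, and all alternatives gave between 480 and 936. Of the 10 immediate early genes, 0 met it, 1 did under library size scaling (Fosb, -1.01), and leaving out each library gave 0 to 3. Their median log2 fold change was -0.57 and ran from -0.63 to -0.56 under other tests, filters and scalings, and from -0.79 to -0.25 with each library left out. Library size scaling moved the median of all genes to -0.065.

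Signs turned only when a library was left out, in Jun (-0.32 to 0.072) and Atf3 (-1.93 to 0.23), above 0 without Pd1fl/fl replicate 2, and in Ier2 (-0.017 to 0.28), below 0 without Pd1fl/fl replicate 1. Other immediate early genes past the criterion numbered 2, and 2 to 5 with each library left out, with 5 without Pd1fl/fl replicate 1 and none lower without Pd1fl/fl replicate 2. Upstream factors and kinases past it numbered 0, but 2 each by DESeq2, by limma-voom, without the filter and with at least 10 counts in every library, 1 under upper quartile scaling, and 0 to 2 with each library left out. The cause was not tested. Heat shock genes past the criterion numbered 0 under every alternative run. No paired analysis was possible because the labels number the groups 1 and 2 and 1 and 3 and the second Pd1cKO-Tie2 column matches no label.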
